A study of Mus musculus with 11 samples.

Results

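The genes described here encode the collagen IV and laminin scaffold of the basement membrane and the proteins that join it. They are Col4a1, Col4a2, Lama1, Lama5, Lamb1, Lamc1, Nid1, Nid2, Hspg2 and Sparc, chosen by name, and all 10 were present among the 48952 genes of the bulk table and the 32285 genes of the single-cell tables. The cells were naïve extraembryonic endoderm (nEnd), a culture derived from mouse embryonic stem cells as a model of blastocyst primitive endoderm (PrE) and grown over feeders in RACL medium, which contains Activin A, CHIR99021 and LIF. For bulk RNA-seq, untreated nEnd of 1 line, OCT4-mCherry, which carries a fluorescent OCT4 reporter, were sorted on the reporter and on the surface receptor PDGFRA into a Pdgfra+ fraction (PDGFRA without the reporter), a double positive fraction (DP) and an Oct4+ fraction (reporter without PDGFRA), each sequenced as 3 libraries. For single-cell RNA-seq, nEnd of the line EPUc, homozygous for a 4-hydroxytamoxifen (4OHT)-inducible Oct4 loss of function (Oct4LOF), were sorted for PDGFRA, cultured with 4OHT or without it, and then returned to RACL, with 1 library per condition. Both Oct4LOF conditions therefore carry the inducible allele, and each design rests on a single line. The paper describes the bulk replicates as biological. The labels do not say whether these replicates came from separate cultures, so p-values measure the spread between these libraries.

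A basement membrane is assembled from a laminin network, which self-polymerises at the cell surface, and a collagen IV network, which gives it mechanical strength. Nidogens and the heparan sulphate proteoglycan perlecan bridge both networks, and SPARC binds collagen IV. In the mouse embryo the PrE gives rise to parietal endoderm, which secretes very large amounts of collagen IV and laminin into Reichert's membrane, and to visceral endoderm, which lies on the basement membrane that separates it from the epiblast.

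Col4a1 (chr8:11198423-11312826, minus strand) and Col4a2 (chr8:11312805-11449287, plus strand; GRCm38, GENCODE vM21) lie head to head and encode the chains of the ubiquitous collagen IV trimer. Their RefSeq promoter windows (GRCm38.p6, 250 bases before to 50 after the start site) are shown because these 2 genes had close fold changes in every comparison below, and that of Hspg2 because its differed from theirs. Capitals mark GGGCGG, the core of a GC box, and CCAAT, each on either strand.
Col4a1 promoter, chr8:11312777-11313076, minus strand: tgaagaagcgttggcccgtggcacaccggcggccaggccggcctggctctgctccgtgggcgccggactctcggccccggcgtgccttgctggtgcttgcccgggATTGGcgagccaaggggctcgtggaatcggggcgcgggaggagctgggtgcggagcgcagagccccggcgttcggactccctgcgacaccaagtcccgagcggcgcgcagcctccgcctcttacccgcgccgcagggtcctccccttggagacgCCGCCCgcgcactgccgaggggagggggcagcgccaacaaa
Col4a2 promoter, chr8:11312555-11312854, plus strand: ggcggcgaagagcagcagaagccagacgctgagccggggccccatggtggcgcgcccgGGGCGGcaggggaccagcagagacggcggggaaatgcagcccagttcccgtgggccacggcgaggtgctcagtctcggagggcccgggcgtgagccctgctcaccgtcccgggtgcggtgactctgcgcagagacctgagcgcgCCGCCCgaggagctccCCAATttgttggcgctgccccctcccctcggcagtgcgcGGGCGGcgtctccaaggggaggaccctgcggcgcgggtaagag
Hspg2 promoter, chr4:137468553-137468852, plus strand: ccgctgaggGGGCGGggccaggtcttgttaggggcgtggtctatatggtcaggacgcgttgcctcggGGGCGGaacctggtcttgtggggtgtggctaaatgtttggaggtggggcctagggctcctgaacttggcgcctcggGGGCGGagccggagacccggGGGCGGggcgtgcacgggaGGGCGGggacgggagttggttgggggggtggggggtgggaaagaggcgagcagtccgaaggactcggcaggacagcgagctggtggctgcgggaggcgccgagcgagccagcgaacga
The Col4a1 and Col4a2 windows share 78 bases, and their start sites are 21 bases apart. A window that overlaps that of a gene on the opposite strand was found for 3212 of 27025 genes (11.89%). GC content was 74.0% in the Col4a1 window, 73.67% in the Col4a2 window and 70.33% in the Hspg2 window, against a median of 52.67% over 32851 promoters. GGGCGG occurred once in the Col4a1 window, 3 times in that of Col4a2 and 5 times in that of Hspg2, and 35.66% of all promoters held it. CCAAT occurred once in each collagen window and not in that of Hspg2, and 37.41% of all promoters held it. The letters GATAA, bound by GATA factors, were found in none of the 7 member windows with an entry and in 25.41% of all promoters. TATAAA was likewise found in none of the 7 and in 13.62% of all promoters. Among the 7, which include Lama5, Lamb1, Nid1 and Sparc, the Sparc window alone held neither GGGCGG nor CCAAT. Lama1, Lamc1 and Nid2 had no entry.

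The bulk libraries held 8019631 to 11642571 gene-assigned reads. Levels are given as CPM, the usual depth-normalised read count, with TMM-scaled library sizes, and a gene was called at an adjusted p below 0.05 and a log2 fold change beyond 1.5 in either direction (edgeR quasi-likelihood test, Benjamini-Hochberg adjustment over 14185 genes). The sort genes followed the gates: Pdgfra was at 729 ± 219, 590 ± 153 and 7.43 ± 4.07 CPM in Pdgfra+, DP and Oct4+ cells, and Pou5f1, which encodes OCT4, at 17.5 ± 9.0, 229 ± 90.3 and 981 ± 142 CPM (SD, n = 3 each). The 12 endoderm markers summed to 4821 to 5447 CPM in Pdgfra+, 6420 to 8451 in DP and 62.5 to 225 in Oct4+ libraries, with none at 0, and the 12 epiblast markers to 214 to 299, 724 to 1130 and 4122 to 5779 CPM.

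The 10 genes together took 7.74 ± 1.01% of all reads in Pdgfra+ cells, 5.59 ± 1.15% in DP cells and 0.230 ± 0.00980% in Oct4+ cells (SD, n = 3 each). The ranges over libraries were 6.60 to 8.50%, 4.51 to 6.79% and 0.220 to 0.239%, so that the Pdgfra+ and DP ranges overlapped and the Oct4+ libraries stood far below both. In bulk samples, fewer cells of a type and less RNA per cell cannot be told apart. The 3 comparisons below share libraries.

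**Figure D1:**
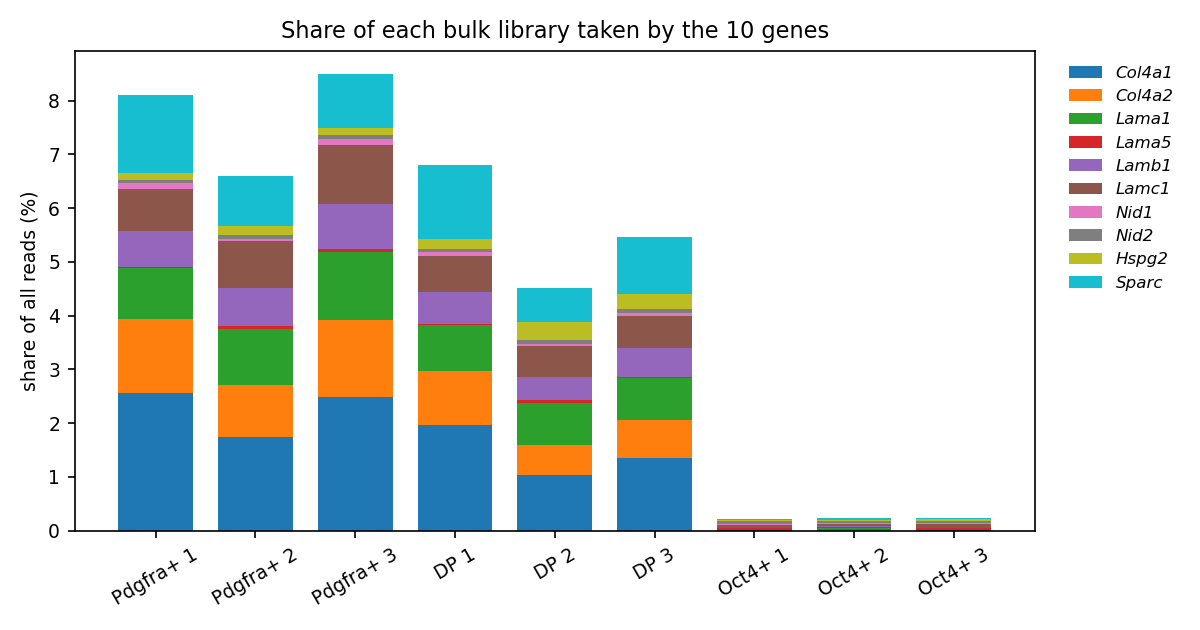
Share of all reads (percent, from 0) taken by each of the 10 genes in each of the 9 bulk libraries, stacked by gene. The 6 Pdgfra+ and DP libraries lie between 4.51 and 8.50%, and the 3 Oct4+ libraries at or below 0.239%.

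Collagen IV reads were abundant in the PDGFRA-positive cells. Col4a1 was at 27885, 18679 and 26713 CPM in Pdgfra+ replicates 1 to 3, at 20720.2, 10807 and 14186 CPM in DP cells, and at 84.9, 192 and 67.7 CPM in Oct4+ cells. It had the highest CPM of any gene in every Pdgfra+ and DP library and ranked between 923 and 3349 in Oct4+ libraries. Col4a2 was at 14812, 10339 and 15496 CPM in Pdgfra+, 10701, 5965 and 7533 CPM in DP, and 44.4, 100.3 and 30.6 CPM in Oct4+ cells. For both genes replicate 2 was the lowest in Pdgfra+ and in DP cells and the highest in Oct4+ cells. The Oct4+ replicate 2 library also had the highest summed endoderm markers of its group (225 CPM against 62.5 and 84.9), and the part of these markers in its collagen level was not tested.

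The chains of the classical embryonic laminin trimer, encoded by Lama1, Lamb1 and Lamc1, followed the same order of means as the collagens, whose Pdgfra+ and DP libraries overlapped. Lama1 was at 10236, 11247 and 13537 CPM in Pdgfra+ replicates 1 to 3, at 8860, 8036 and 8134 CPM in DP cells, and at 49.1, 86.4 and 40.2 CPM in Oct4+ cells. Lamb1 was at 7191, 7512 and 9166 CPM, at 6307, 4652 and 5589 CPM, and at 72.0, 138 and 64.5 CPM in the same order. Lamc1 was at 8478, 9515 and 11760.1 CPM, at 7069, 6003 and 6272 CPM, and at 462, 346 and 570.0 CPM. Every DP library was below every Pdgfra+ library for these 3 chains, and every Oct4+ library was below both. Of all genes tested, 34.2% also separated DP from Pdgfra+ libraries in either direction, and none of the 3 chains passed the edgeR adjusted p there. For Oct4+ libraries the share was 62.6% against DP and 69.3% against Pdgfra+ libraries. Lamc1, the γ chain used by most laminin trimers, kept a higher level in Oct4+ cells than its partners, with 459 ± 112 CPM against 58.6 ± 24.5 for Lama1 and 91.4 ± 40.3 for Lamb1 (SD, n = 3 each), and per kilobase of exon 55.5 ± 13.6, 6.05 ± 2.53 and 9.22 ± 4.06. Lama5, the α chain of the more widely expressed laminins, showed another pattern, with 375, 541 and 507 CPM in Pdgfra+, 309.7, 543 and 337 CPM in DP, and 246, 261 and 298 CPM in Oct4+ cells. The Pdgfra+ and DP values of Lama5 overlapped, and the Oct4+ values lay just below both.

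The linkers were less abundant. Nid1, the nidogen that binds the laminin γ chain, was at 1119, 337 and 1098 CPM in Pdgfra+ replicates 1 to 3, at 764, 342 and 535 CPM in DP cells, and at 201, 63.5 and 125 CPM in Oct4+ cells. Replicate 2 was the lowest in every population. Nid2, its paralog, was at 749, 845 and 864 CPM, at 609, 746 and 842 CPM, and at 445, 321 and 428 CPM, a much smaller spread between populations. Hspg2, which encodes perlecan, was at 1372, 1707 and 1298 CPM in Pdgfra+, 1894, 3504 and 2960.1 CPM in DP, and 233, 214 and 223 CPM in Oct4+ cells. It was the single member whose DP libraries all exceeded its Pdgfra+ libraries. Sparc was at 15797, 9996 and 10976 CPM in Pdgfra+, 14460 CPM, 6601 and 11230.1 CPM in DP, and 145, 286 and 281 CPM in Oct4+ cells, with overlap between Pdgfra+ and DP cells.

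**Figure D2:**
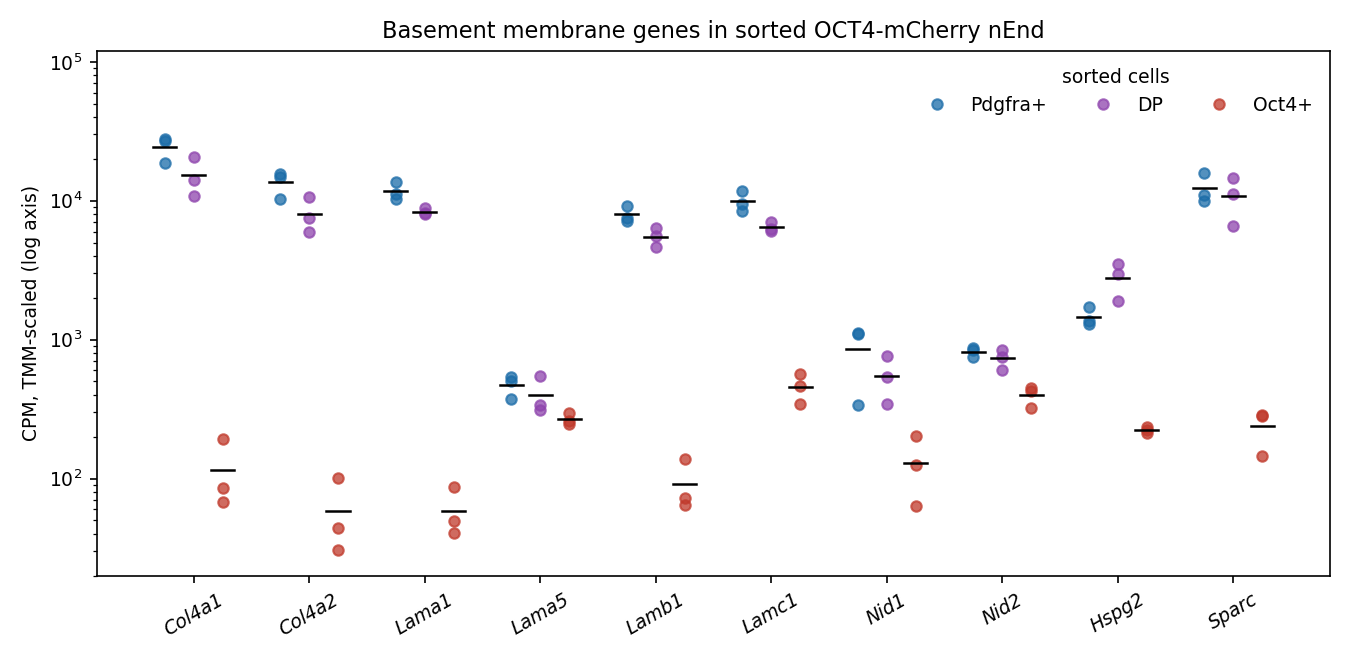
CPM (log axis) of the 10 genes in each sorted library, with the mean of each group of 3 as a bar. The Pdgfra+ and DP points lie close together, Hspg2 is higher in DP cells, and the Oct4+ points are far lower for Col4a1, Col4a2, Lama1, Lamb1, Lamc1 and Sparc and only slightly lower for Lama5.

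Levels were compared between genes per kilobase of the exons of the GENCODE vM21 gene model. In Pdgfra+ cells the order of mean CPM per kilobase was Col4a1 (3272 ± 671), Sparc (3236 ± 819.7), Col4a2 (2047 ± 423), Lama1 (1206 ± 175), Lamc1 (1199 ± 203), Lamb1 (802 ± 107), Nid2 (158 ± 11.9), Nid1 (123 ± 64.2), Hspg2 (102 ± 15.2) and Lama5 (41.7 ± 7.70) (SD, n = 3 each). Among neighbours in this order, Col4a1 and Sparc, Lama1 and Lamc1, Nid2 and Nid1, and Nid1 and Hspg2 differed by less than their spread. In DP cells Sparc (2841 ± 1043) and Col4a1 (2041 ± 675) again overlapped, and Hspg2 (195 ± 57.3) had a higher mean than Nid2 (142 ± 22.6), within its spread, followed by Nid1 (78.8 ± 30.5) and Lama5 (34.8 ± 11.2). In Oct4+ cells the order was different: Nid2 (77.0 ± 13.0), Sparc (62.7 ± 21.0) and Lamc1 (55.5 ± 13.6) led, within their spread of each other, and Col4a1 (15.4 ± 9.03), Col4a2 (8.83 ± 5.57) and Lama1 (6.05 ± 2.53) were near the bottom.

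Oct4+ against DP cells asks how the scaffold differs between cells without surface PDGFRA and cells with both markers. All 10 genes had higher CPM in every DP library than in every Oct4+ library, and 62.6% of all genes tested separated these groups in either direction. Of the 10 members, 8 were called higher in DP cells, against 13.1% of all genes, and 9 passed the adjusted p alone, against 28.3%. Lama1 was 142-fold higher (log2 fold change 7.15 ± 0.33 SE, edgeR adjusted p = 1.29e-06), Col4a2 138-fold, Col4a1 133-fold (7.05 ± 0.49, edgeR adjusted p = 4.92e-06), Lamb1 60.3-fold and Sparc 45.3-fold. Lamc1 was 14.0-fold, Hspg2 12.5-fold and Nid1 4.21-fold higher. Nid2 was 1.84-fold higher (log2 0.88 ± 0.17 SE, edgeR adjusted p = 0.00142), below the fold limit. Lama5 did not pass (log2 0.56 ± 0.22 SE, edgeR adjusted p = 0.0522), and its adjusted p lay between 0.0106 and 0.244 over the alternatives. The median log2 fold change was 4.66 over the members and -0.04 over all genes tested.

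Oct4+ against Pdgfra+ cells gave the same split among the members. All 10 were below every Pdgfra+ library in every Oct4+ library, with 69.3% of all genes tested separating the groups in either direction. Of the members 8 were called lower in Oct4+ cells, against 14.7% of all genes, and all 10 passed the adjusted p alone, against 31.5%. The log2 fold changes were -7.86 for Col4a2, -7.73 for Col4a1, -7.64 for Lama1, -6.44 for Lamb1, -5.69 for Sparc, -4.43 for Lamc1, and -2.71 for both Nid1 and Hspg2. Nid2 (-1.04 ± 0.17 SE, edgeR adjusted p = 0.00041) and Lama5 (-0.82 ± 0.22 SE, edgeR adjusted p = 0.00858) fell by less than the fold limit. The median was -5.06 over the members and 0.01 over all genes. Scaling by total counts in place of TMM moved the median of all genes to 0.29 here and to -0.29 in DP against Oct4+ cells. All members kept their direction under it, and Lama5 no longer passed in Oct4+ against Pdgfra+ cells (log2 -0.54, edgeR adjusted p = 0.0562). Under that scaling the genes past the adjusted p split into 5738 higher and 3502 lower in Oct4+ than Pdgfra+ cells, against 4506 and 4464 with TMM, and into 3214 higher and 5354 lower in DP than Oct4+ cells, against 4016 and 3952.

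DP against Pdgfra+ cells asks whether the scaffold differs already within the PDGFRA-positive endoderm when the OCT4 reporter is present. None of the 10 members was called, against 3.89% of all genes tested, and 1, Hspg2, passed the adjusted p alone, against 6.87%. Hspg2 was 1.91-fold higher in DP cells (log2 0.93 ± 0.21 SE, edgeR adjusted p = 0.0336), and higher in all 3 replicate numbers, by 0.46, 1.04 and 1.19 on the log2 scale. Its adjusted p was 0.0888, 0.0621 and 0.128 without Pdgfra+ replicate 1, 2 or 3 and 0.113 and 0.105 without DP replicate 2 or 3, and 0.00822 without DP replicate 1. The other 9 members had log2 fold changes below 0, none past the adjusted p, from -0.75 ± 0.39 SE for Col4a2 (edgeR adjusted p = 0.260) and -0.68 ± 0.38 SE for Col4a1 (edgeR adjusted p = 0.289) to -0.16 ± 0.17 SE for Nid2 (edgeR adjusted p = 0.571). Lamc1 came closest, at -0.62 ± 0.20 SE (edgeR adjusted p = 0.0863, and 0.0433 with DESeq2). The median was -0.51 over the members and 0.02 over all genes.

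The libraries did not overlap for 4 of the 10 members, Lama1, Lamb1 and Lamc1, lower in DP cells, and Hspg2, higher, against 34.2% of all genes tested. The replicate numbers paired DP with Pdgfra+ libraries, and 6 members, both collagens, the 3 classical laminin chains and Nid2, were lower in DP cells in all 3 pairs. The share of all genes with the same direction in all 3 pairs was not counted, so this is a description only. With the replicate number as a block in a fit of these 6 libraries, 3 members passed the adjusted p, Col4a1 (-0.69, edgeR adjusted p = 0.0355), Col4a2 (-0.75, 0.0282) and Hspg2 (0.91, 0.0216), while Lamc1 was at 0.0514 and no member reached the fold limit. In that fit 713 of the 12541 genes tested were called and 2536 passed the adjusted p, beside which the 3 of 10 members are to be read. In the same 6 libraries without the block 407 were called and 859 passed, and no member passed. DP libraries also held more summed endoderm and epiblast marker reads than Pdgfra+ libraries, as given above, whose part in these differences was not tested. The endoderm markers did not move together. The values that follow leave out Gata6, Gata4, Dab2, Hnf4a and Foxq1, which the rule for named genes did not pick. Mean CPM was higher in DP cells for Cubn (2357 against 629), Amn (663 against 164) and Sox7 (194 against 128). It was lower for Pdgfra (590 against 729), Sox17 (283 against 402), Cited1 (211 against 411) and Foxa2 (94.0 against 121).

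**Figure D3:**
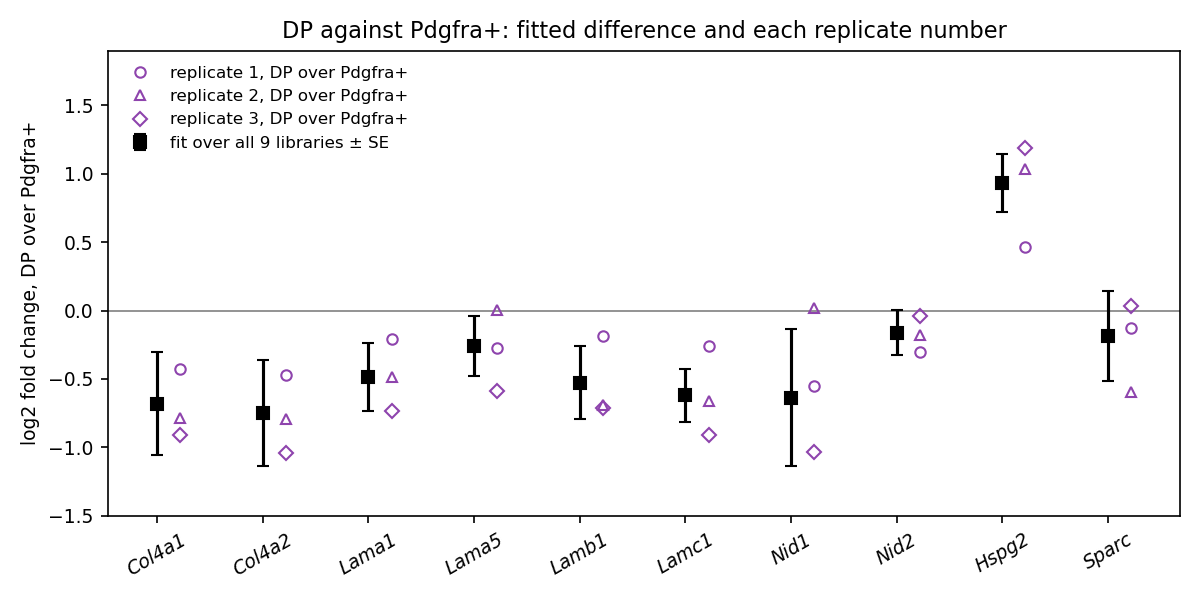
Log2 fold change of DP over Pdgfra+ cells for each member. Black squares are the fit over all 9 libraries with its SE, and open symbols the ratio of the libraries that share a replicate number. Hspg2 lies above 0 in all 3 pairs, and Col4a1, Col4a2, Lama1, Lamb1, Lamc1 and Nid2 lie below 0 in all 3.

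The proportions among the chains were also compared within libraries. Collagen IV trimers take up the Col4a1 and Col4a2 products together, and the ratio of Col4a1 to Col4a2 reads was 1.80 ± 0.0794 in Pdgfra+, 1.88 ± 0.0625 in DP and 2.01 ± 0.173 in Oct4+ cells (SD, n = 3 each), or 1.60, 1.66 and 1.79 per kilobase. The difference between DP and Pdgfra+ cells was 0.06 on the log2 scale (two-sided exact permutation test p = 0.2), and that between Oct4+ and Pdgfra+ cells 0.16 (exact permutation p = 0.1, the smallest that 3 against 3 allows). The collagen ratios lay within 1.72 and 2.21 in all 9 libraries, while the level of either gene differed over 100-fold. The ratio of Lama1 to Lama5 reads was 24.9 ± 3.60 in Pdgfra+, 22.5 ± 7.05 in DP and 0.222 ± 0.0998 in Oct4+ cells. The ratio of Lamc1 to Lamb1 was 1.24 ± 0.0560, 1.18 ± 0.0976 and 5.92 ± 3.19 in the same order, with the Oct4+ libraries between 2.51 and 8.84. For both ratios every Oct4+ library lay outside the range of the other two populations. Over 12 such tests, of 4 ratios in 3 comparisons, 7 reached the smallest possible exact permutation p of 0.1 (0.171 after Benjamini-Hochberg adjustment), and none can reach 0.05 in this design.

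Over the 9 libraries, the genes whose log2 CPM followed that of Col4a1 most closely, among 9603 with a mean of at least 10 CPM, were Col4a2 (Pearson r = 0.9998), Sox17, an endoderm transcription factor (0.9989), Lamb1 (0.9985), Serpinh1, the collagen chaperone of the endoplasmic reticulum (0.9981), and Rras2, a small GTPase (0.9975). Lama1 ranked 13 (0.997), Sparc 118 (0.990), Lamc1 411 (0.978), Hspg2 1772 (0.916), Nid2 2123 (0.891), Nid1 2493 (0.856) and Lama5 3456 (0.717). These values are a description over libraries that fall into low Oct4+ and high PDGFRA-positive samples, and these groups share much of each r.

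The machinery around the scaffold was described by gene lists. Of 31 genes for collagen folding and export, all were tested, and 15 were called higher and none lower in DP than in Oct4+ cells (median log2 1.43 against -0.04 over all genes, of which 1859 were called higher and 2074 lower). Among them Serpinh1 was at 4012 ± 493 CPM in Pdgfra+, 2991 ± 437 in DP and 97.8 ± 27.4 in Oct4+ cells, and P3h2, which hydroxylates collagen IV prolines, at 155 ± 29.4, 128 ± 51.2 and 2.84 ± 1.42 CPM (SD, n = 3 each). In Oct4+ against Pdgfra+ cells 16 of the 31 were called lower and none higher (median -1.54), against 2080 and 2455 of all 14185 genes. In DP against Pdgfra+ cells none was called and 2 fell past the adjusted p alone.

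The other chains did not move as a block. Among further collagen IV and laminin genes, Col4a3 to Col4a6 and Lama2 were too low to be tested. In Oct4+ against Pdgfra+ cells Lama3, an epithelial α chain, was called higher (12.3 ± 6.16 against 0.172 ± 0.218 CPM), as was Lama4, and Lamb2 and Lamb3 were called lower. Lamb3, a β chain of epithelial laminins, was called lower in DP than Pdgfra+ cells, at 8.36 ± 3.66 against 42.3 ± 24.9 CPM (log2 -2.34 ± 0.45 SE, edgeR adjusted p = 0.0219). Of 15 other basement membrane components tested, 5 were called higher and 5 lower in Oct4+ than Pdgfra+ cells, against 2455 and 2080 of all 14185 genes. Col18a1, the core protein of a collagen that carries heparan sulphate, was at 3.40 ± 1.13 CPM in Pdgfra+, 18.4 ± 4.04 in DP and 373 ± 91.2 in Oct4+ cells, opposite in order to Col4a1, and rose in DP against Pdgfra+ cells (log2 2.43 ± 0.28 SE, edgeR adjusted p = 0.00725). Egflam, a dystroglycan ligand, went the other way, at 114 ± 26.2, 90.2 ± 51.2 and 2.46 ± 3.08 CPM. Fbln1, which encodes the matrix protein fibulin, was lower in DP than Pdgfra+ cells (47.5 ± 12.2 against 144 ± 104 CPM, log2 -1.60 ± 0.42 SE, edgeR adjusted p = 0.0495).

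Of 16 genes for crosslinking and turnover tested, 9 were called higher and 4 lower in DP than Oct4+ cells (median log2 2.67), 4 higher and 10 lower in Oct4+ than Pdgfra+ cells (median -2.63), and none in DP against Pdgfra+ cells. Over all 14185 genes the calls were 1859 higher and 2074 lower, 2455 higher and 2080 lower, and 454 higher and 98 lower in the same comparisons. Plat, tissue plasminogen activator, was at 125 ± 37.3 CPM in Pdgfra+, 57.6 ± 51.9 in DP and 2.24 ± 1.01 in Oct4+ cells. Loxl3, a lysyl oxidase that crosslinks collagen, and Mmp9, a gelatinase, were called lower in cells with PDGFRA, with 1.51 ± 0.173 and 5.27 ± 3.50 CPM in Oct4+ cells, 0.0393 and 0.242 CPM in DP and 0.246 and 0.0664 CPM in Pdgfra+ cells on average. Both were barely detected in cells with PDGFRA. Loxl3 was at 0, 0.118 and 0 CPM in the DP libraries, and Mmp9 at 0, 0.199 and 0 CPM in the Pdgfra+ libraries. Of 10 receptor genes tested, none was called higher and 1, the collagen receptor integrin gene Itga1, lower in DP than Oct4+ cells (0.371 ± 0.113 against 5.39 ± 2.13 CPM). Ddr2, a collagen receptor kinase, was at 1.502 ± 0.973 CPM in Pdgfra+, 19.9 ± 16.9 in DP and 20.04 ± 6.68 in Oct4+ cells, and was called higher in DP than Pdgfra+ cells (log2 3.74 ± 0.70 SE, edgeR adjusted p = 0.0196).

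Lists for the PrE derivatives were set beside the members. Of 12 parietal endoderm genes, 10 were called higher and 1 lower in DP than Oct4+ cells, against 1859 and 2074 of all 14185 genes. The 10 include Pdgfra, on which the cells were sorted, so its call follows the gate. None of the 12 was called in DP against Pdgfra+ cells (median -0.70), against 3.89% of all genes. Pth1r, a receptor of parietal endoderm, was at 844 ± 261 CPM in Pdgfra+, 566 ± 265 in DP and 7.25 ± 8.11 in Oct4+ cells, and Thbd, thrombomodulin, at 99.0 ± 48.3, 21.4 ± 19.9 and 0.325 ± 0.222 CPM. Of 14 visceral endoderm genes tested, 12 were called higher and none lower in DP than Oct4+ cells. Against Pdgfra+ cells, where 454 of all 14185 genes were called higher in DP cells, 2 of this list were (median 0.43). These were Amn (663 ± 184 against 164 ± 46.6 CPM, log2 2.02 ± 0.43 SE, edgeR adjusted p = 0.0288) and Cubn (2357 ± 786 against 629 ± 139 CPM, log2 1.91 ± 0.49 SE, edgeR adjusted p = 0.0463), which form an endocytic receptor.

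The single-cell libraries had 6896 barcodes without 4OHT and 7283 with it, of which 21 sequences were shared, and 5324 and 6299 cells were kept. The matrices hold 107645982 and 95420040 unique molecular identifiers (UMIs). Pou5f1 was at 39.6 CPM without and 2.74 CPM with 4OHT over all barcodes, which checks the deletion as a level only, since it also follows the mix of cells. With 1 library per condition no test between conditions is possible, and all intervals and ratios cover counting error only (95%). Counts came from 3′ tags, so levels are not compared between genes per length.

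The cells were clustered without the 10 genes. An endoderm-like class of 4 clusters, named here by their leading genes, held 1299 cells without and 5012 with 4OHT. Of the cells without 4OHT 759 belonged to the Amn/Cubn cluster, 285 to Pitx1/Car4, 218 to Pitx1/Cited1 and 37 to Gkn2/Gkn1, while with 4OHT the same clusters held 8, 2241, 901 and 1862. The epiblast-like cluster (Mylpf/Cdx1) had 2171 cells without 4OHT and none with it, and as it comes from 1 library, the cell type and the library cannot be told apart. A feeder fibroblast-like cluster had 20 and 31 cells, and 5 clusters stayed unnamed.

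Over all barcodes the members took 0.392% of UMIs without and 2.32% with 4OHT. The ratios were 6.71 for Col4a1 (681 and 4567 CPM), 7.17 for Col4a2, 5.88 for Lama1, 5.65 for Lamb1, 5.97 for Lamc1, 8.15 for Nid1, 5.70 for Sparc, 2.95 for Nid2, 1.26 for Hspg2 and 0.711 for Lama5. So 8 of the 10 were over 2-fold higher with 4OHT, against 22.2% of genes with at least 20 CPM in either library. The share of endoderm-like cells differed between the libraries, and the values within that class are given next.

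Within the endoderm-like class the members took 1.504% of UMIs without and 2.46% with 4OHT, a ratio of 1.63. The 12 epiblast markers summed to 2804 CPM without and 764 CPM with 4OHT in the same class, with 8 of the 8 at 20 CPM or more over 2-fold lower (median log2 -2.43), and the endoderm markers to 3286 and 3062 CPM. Dppa5a made up most of the epiblast sum of the class, at 2367 CPM without and 677 CPM with 4OHT. Tdh was next, at 138 and 52.9 CPM. Without 4OHT the epiblast markers summed to 3731 CPM in the Amn/Cubn cluster, above its endoderm markers at 3528 CPM. They summed to 748 CPM in Pitx1/Cited1, 782 in Pitx1/Car4 and 601 in Gkn2/Gkn1. The part of Dppa5a in these cluster sums was not separated, so they do not measure a whole epiblast programme. The part of the epiblast markers in the difference was not tested. Col4a1 was at 2784 and 4833 CPM (ratio 1.74, 1.72 to 1.75), Col4a2 at 1367 and 2556 (1.87), Lama1 at 1084 and 1684 (1.55), Lamb1 at 1150 CPM and 1745 CPM (1.52) and Lamc1 at 1039 and 1882 (1.81). Nid1 was at 65.2 and 238 CPM (ratio 3.65, 3.46 to 3.86), Nid2 at 116 and 189.8 CPM (1.64) and Sparc at 7254 and 11350 CPM (1.56). Hspg2 stood apart, at 171 CPM without and 63.4 CPM with 4OHT (ratio 0.371, 0.355 to 0.388). Lama5 was at 15.4 and 14.1 CPM (0.917, 0.810 to 1.04). Of the 9 members with at least 20 CPM, 2 differed over 2-fold, Nid1 upward and Hspg2 downward, against 10.9% of such genes.

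Levels differed between the clusters of the class. In the Amn/Cubn cluster, which held most endoderm-like cells without 4OHT and 8 with it, Col4a1 was at 1900 CPM, Col4a2 at 892, Lama1 at 889, Lamb1 at 857, Lamc1 at 793, Nid1 at 45.3, Nid2 at 97.6 and Sparc at 6356 CPM. All these were the lowest of the 4 endoderm-like clusters in that library, while Hspg2, at 214 CPM, was the highest. Pou5f1 was at 20.9 CPM there and between 0 and 3.89 CPM in the other 3. The Amn/Cubn cluster also held the high epiblast marker sum given above. The Gkn2/Gkn1 cluster lay at the other end, with Col4a1 at 7620 CPM without and 6580 CPM with 4OHT, Sparc at 14577 and 14922 CPM, and Hspg2 at 57.4 and 55.9 CPM. Its members took 3.41 and 3.20% of UMIs, against 1.21% in the Amn/Cubn cluster.

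**Figure D4:**
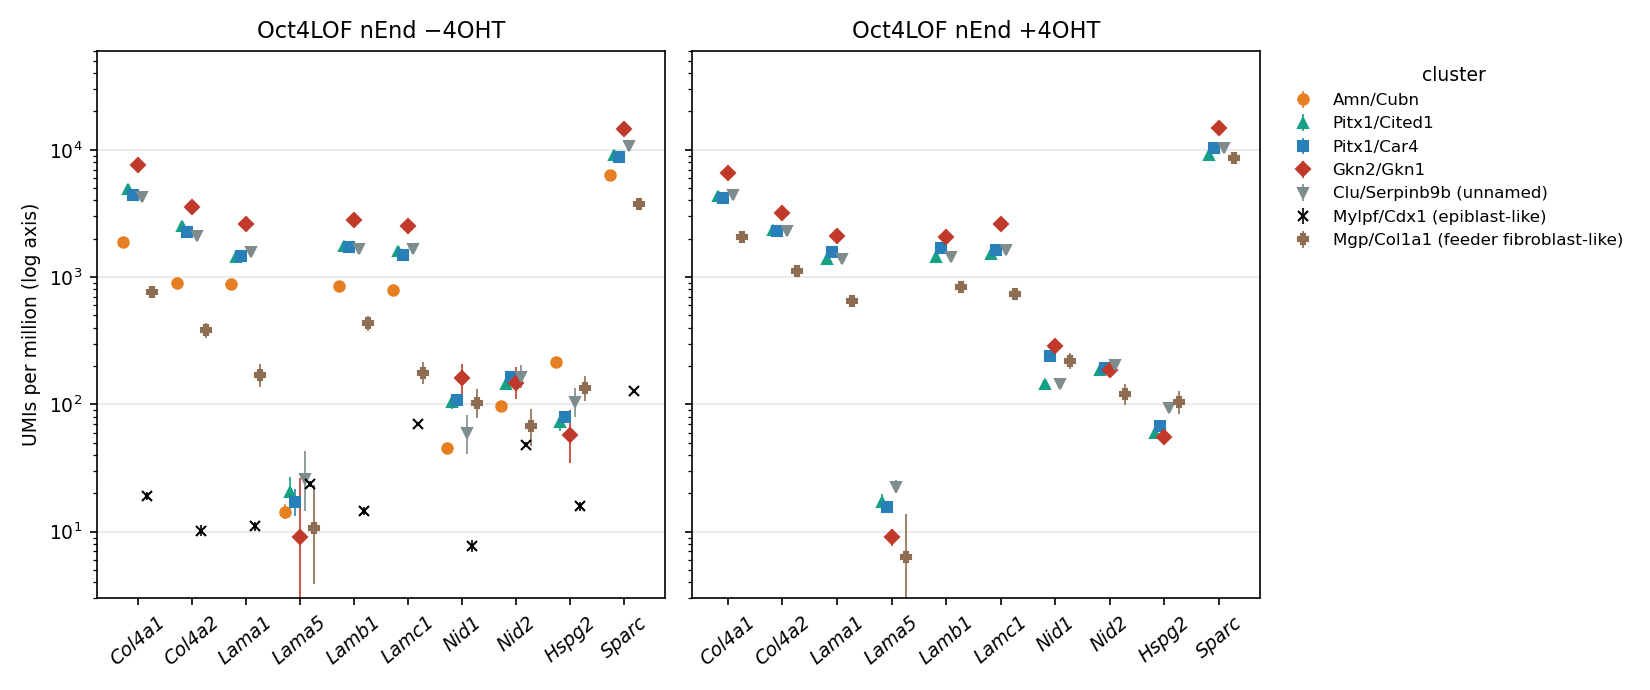
CPM (log axis) of each member in clusters of Oct4LOF nEnd without (left) and with 4OHT (right). Bars are exact counting intervals, mostly smaller than the symbols. The Amn/Cubn cluster, shown for the library without 4OHT, has the lowest endoderm-like Col4a1 and the highest Hspg2, and the Gkn2/Gkn1 cluster the highest Col4a1 and Sparc.

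In 4 clusters with high levels of the members and cells in both libraries, their summed level was close to equal. Pou5f1 was low there without 4OHT, at 3.89 CPM in Pitx1/Car4, 0.848 in Pitx1/Cited1, 0 in Gkn2/Gkn1 and 6.97 (4 UMIs) in Clu/Serpinb9b. With 4OHT it was at 1.08, 0.839, 3.88 and 1.24 CPM in the same order. These clusters thus differed little in Pou5f1, and an effect of Oct4 loss on the members was not tested. The summed ratio was 1.07 in Pitx1/Car4, 0.943 in Pitx1/Cited1, 0.940 in Gkn2/Gkn1 (37 cells without 4OHT) and 0.986 in the unnamed Clu/Serpinb9b cluster, where the actin gene Acta2 was among the leading genes. Nid1 was higher with 4OHT in each, by 2.21 (2.01 to 2.44), 1.39, 1.81 and 2.43 times. In Pitx1/Car4 Nid1 was the single member of 9 over 2-fold, against 1.63% of genes, and 0 of 10 in Pitx1/Cited1 and 0 of 9 in Gkn2/Gkn1 were, against 1.49% and 6.16%. The summed ratio was not near 1 in the other clusters with cells in both libraries, at 1.63 in Cidea/H19, 3.08 in Mt2/Cidea, 1.89 in Npl/Pdlim4 and 2.40 in the feeder fibroblast-like cluster. In the 3 endoderm-like clusters the members other than Nid1 lay between 0.732 (Lamb1 in Gkn2/Gkn1) and 1.30 (Nid2 in Pitx1/Cited1). Hspg2 had a ratio of 0.853 (0.761 to 0.960) in Pitx1/Car4, far nearer to 1 than over the class. Without the Amn/Cubn cluster, a choice made after these values were seen, the class ratio of the members was 1.14 in place of 1.63, that of Hspg2 0.833 and that of Nid1 2.19.

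**Figure D5:**
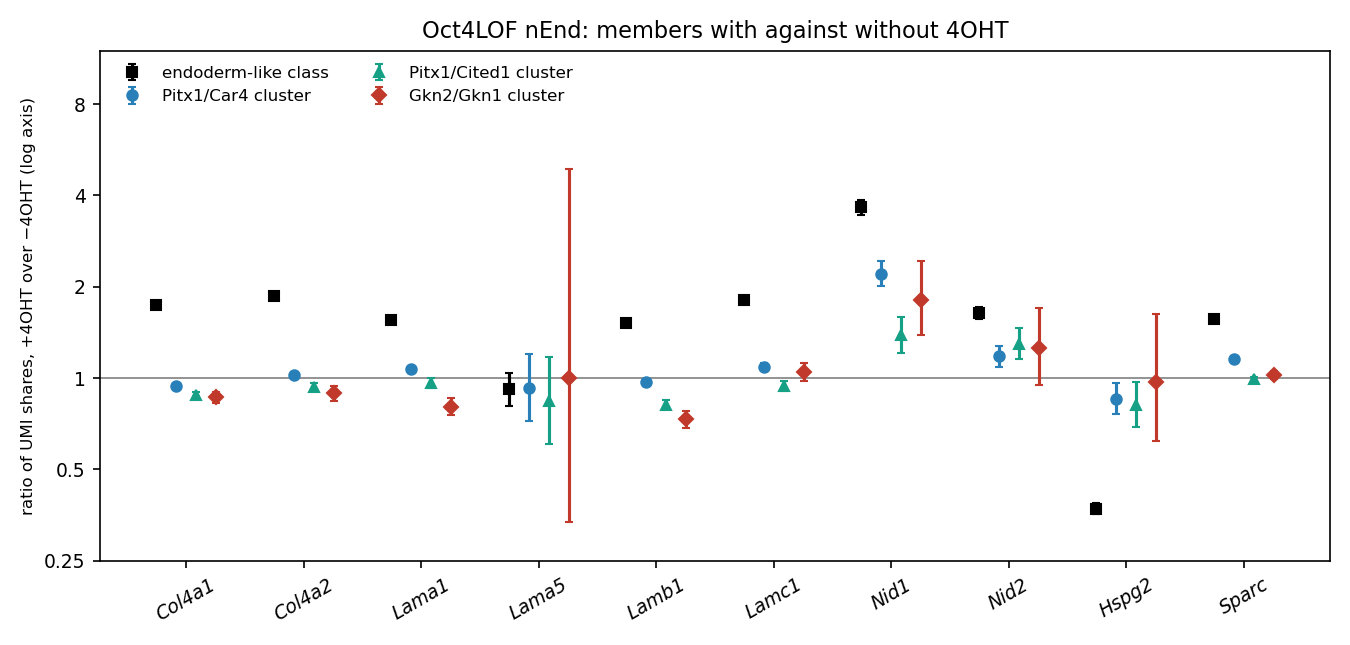
Ratio of UMI shares with over without 4OHT (log axis) for each member, in the whole endoderm-like class and in 3 of its clusters, with exact 95% counting intervals. Most members lie between 1.5 and 2 in the class and near 1 within clusters, Nid1 lies above 1 in all 4, and Hspg2 is at 0.371 in the class.

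The same ordering held cell by cell as a description. Cells of the endoderm-like class had a median of 1.60% of their UMIs in the members without 4OHT (10th to 90th percentile 0.659 to 2.77) and 2.38% with it (1.46 to 3.85), against 0.0316% in epiblast-like cells. After thinning each cell to 5000 UMIs, which kept 1270 and 4957 endoderm-like and 2155 epiblast-like cells, Col4a1 was detected in 99.7 and 99.9% of endoderm-like cells and in 9.10% of epiblast-like cells. Nid1 was detected in 27.2% without and 55.7% with 4OHT (3.85% of epiblast-like cells), and Hspg2 in 48.5 and 24.2% (6.59%). Unthinned, these were 55.6 and 76.8% for Nid1 (13.8% of epiblast-like cells) and 76.3 and 48.9% for Hspg2 (25.7%), at median depths of 15071 and 12664 UMIs, and 19569 in epiblast-like cells.

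Correlations across the thinned endoderm-like cells were taken on the logarithm of CPM plus 1. For Col4a1 and Col4a2 the Pearson correlation was 0.61 over 1270 cells without 4OHT and 0.67 over 4957 cells with it. Correlations of Col4a1 with Lama1, Lamb1, Lamc1 and Sparc were 0.47 to 0.56 and 0.37 to 0.43, and with Nid1 0.19 and 0.20. With Hspg2 they were -0.10 and -0.03, and 0.14 over the 742 cells of the Amn/Cubn cluster alone. Rank (Spearman) correlations without 4OHT were 0.79 for Col4a1 with Col4a2, 0.59 with Lama1, 0.65 with Lamb1 and 0.61 with Lamc1. They were 0.55 for Col4a1 with Sparc, 0.21 with Nid1 and -0.14 with Hspg2. Cells of 1 library share its preparation and are not replicates, and the low counts of Hspg2, Nid1, Nid2 and Lama5 limit their correlations.

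Epiblast-like cells had low levels of the scaffold in other proportions. Col4a1 was at 19.0, Col4a2 at 10.2, Lama1 at 11, Lamb1 at 14.6, Nid1 at 7.69, Hspg2 at 15.8 and Sparc at 127 CPM, while Lamc1 was at 69.8, Nid2 at 48.2 and Lama5 at 23.8 CPM. For each 100 Col4a1 UMIs they had 366 of Lamc1, 253 of Nid2 and 125 of Lama5, against 37.3, 4.16 and 0.554 in endoderm-like cells of the same library. The number of Col4a2 UMIs was closer, 53.7 against 49.1. The shares of epiblast-like cells with Col4a1, Nid1 or Hspg2 given above are set beside these values because free RNA also gives UMIs, which was not tested. Lama5 was higher in epiblast-like than in endoderm-like cells (23.8 against 15.4 CPM) and lower in Oct4+ than in Pdgfra+ cells (268 against 475 CPM). These are different lines and assays, and that difference was not tested. In the feeder fibroblast-like cluster Col4a1 was at 760.4 CPM without and 2064 CPM with 4OHT and Sparc at 3786 and 8619 CPM, and in the bulk libraries the 14 feeder fibroblast markers summed to between 22.4 and 188 CPM.

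Lists in the endoderm-like class were read beside a median log2 ratio of 0.14 over all 6787 genes with at least 20 CPM. Of these genes 511 were over 2-fold higher and 230 over 2-fold lower with 4OHT. Of 26 collagen folding and export genes at that level, 2 were over 2-fold higher with 4OHT (median 0.23), with Serpinh1 at 1185 and 1532 CPM. Of 9 crosslinking and turnover genes 6 were higher (median 1.28), among them Adamts9, a secreted metalloprotease, at 163 and 600.1 CPM and Loxl2, a lysyl oxidase that acts on collagen IV, at 136 and 326 CPM. Of 6 receptor genes 3 were higher (median 0.95), and of 6 other basement membrane components 3 were higher and 1 lower. Lamb2 was at 23.2 and 57.6 CPM. Of 12 parietal endoderm genes 4 were over 2-fold higher and 1 lower (median 0.80), with Thbd at 16.3 and 144 CPM, and of 9 visceral endoderm genes 2 were higher and 4 lower (median -0.97), with Cubn at 467 and 18.4 CPM and Amn at 327 and 4.45 CPM. These shifts come with the change of clusters within the class given above, and their part in them was not tested. Some list genes are also among the endoderm markers that named the class. These are Pdgfra, Gata4 and Sox7 of the parietal list and Amn, Cubn, Hnf4a, Foxa2, Cited1 and Dab2 of the visceral list.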

How the data were processed

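Bulk RNA was made into directional libraries (NEBNext Ultra II), and for the 9 sorted OCT4-mCherry libraries the authors deposited unnormalised counts of reads by gene. Single cells were processed with 10x Chromium 3′ chemistry and Cell Ranger 6.1.2, and the deposited matrices hold unnormalised counts of UMIs by gene and cell barcode. The submitters' processing notes name the build mm10. The aligner, counting tool and annotation behind the bulk table were not given in the sources used here. That table has 35 empty rows, which hold no counts and were left out, and 0 columns of per-sample values were unused.

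Bulk counts were filtered with filterByExpr, scaled by TMM and fitted over all 9 libraries without a block by the edgeR quasi-likelihood test (edgeR 4.0.16, R 4.3.3), with p adjusted over 14185 genes. Calls needed an adjusted p below 0.05 with a log2 fold change beyond 1.5 either way. Ratios within libraries were tested by exact permutation. DESeq2 1.42.0, other scalings, other filters, a replicate block and leaving out each library were alternatives. Libraries of a group differed beyond counting noise (chi-square per degree of freedom 18.3 to 40.3). DP and Pdgfra+ libraries with the same number deviated together from their group means (r = 0.271, 0.477 and 0.321). The numbers were therefore taken as pairs there in the ratios per replicate number and in the block alternatives. The reported test of DP against Pdgfra+ cells did not use this pairing. The labels do not say what a number marks. On simulated data for DP against Pdgfra+ (13845 genes) the test recovered 21 of 50 2-fold, 48 of 50 4-fold and 49 of 50 8-fold changes. Unchanged genes passed in 4 cases. Both counts used the adjusted p alone, without the fold limit, so they do not describe the calls.

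Cells with at least 1000 genes and at most 10% mitochondrial UMIs were clustered in scanpy 1.11.5 (2000 variable genes without the members, 20 components, Leiden resolution 0.6). A class was named from marker lists, and a cluster whose leading genes went against its name, or with shallow cells, stayed unnamed. Scrublet called 173 cells (3.25%) without and 1 (0.0159%) with 4OHT, so it did not work on the latter, and no cells were removed by it. Single-cell folds were counted as 2-fold with a pseudocount of 1 CPM among genes with at least 20 CPM in either library. Share intervals are exact Clopper-Pearson or Poisson bounds at 95%. Promoter sequences are from RefSeq (GRCm38.p6), and 7 of 10 members matched.

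The members and the gene lists were chosen with earlier results of these data known. The named genes are the members, up to 2 genes per list with the largest called change in a comparison, the 5 genes most like Col4a1 and the sort genes. Genes named beyond these, in the single-cell lists, were chosen after their values were seen. Results for 1 item among the other chains are not reported here.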

Additional observations from a re-analysis of the deposited data

How the results depend on the processing

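For DP against Oct4+ cells and Oct4+ against Pdgfra+ cells, the number of members called was 8 under every alternative run, filters, scalings, the replicate block, DESeq2 and each left-out library included. DP against Pdgfra+ cells was less settled: no member was called under any of them, but the number past the adjusted p alone, 1 as reported, was 2 with no filter on low counts, 2 with DESeq2, 0 with only the 6 libraries compared, 3 with those libraries and the replicate block, and 0 to 1 with each library left out. With the block in those 6 libraries, 2536 of 12541 genes tested passed the adjusted p. The replicate block changed the call of no member. On the adjusted p alone, Lama5 in DP against Oct4+ cells, 0.0522 as reported, was at 0.0322 with the block in all 9 libraries and at 0.0689 with it in the 6 compared, and at 0.244 with total-count scaling. The numbers did not pair those groups (r = 0.0222, -0.0728 and 0.152). All genes called in DP against Pdgfra+ cells numbered 552 as reported, 1023 with no filter, 914 with DESeq2 and 57 (without Pdgfra+ replicate 3) to 728 (without DP replicate 1), with 363, 148, 124 and 121 without Pdgfra+ replicate 1, Pdgfra+ replicate 2, DP replicate 2 and DP replicate 3. Sparc in that comparison, -0.19 as reported, ranged from -0.46 (without DP replicate 1) to 0.067 (without DP replicate 2), with 0.04 without Pdgfra+ replicate 1, and the Lama1 to Lama5 ratio to 0.088 without DP replicate 2 (range -0.39 to 0.088), the cause of which was not tested. The Oct4+ share was 0.204% with TMM-scaled sizes.

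The summed ratio in endoderm-like cells, 1.63 as reported, was 1.71 at a Leiden resolution of 1.2, 1.66 with the members kept among the variable genes, 1.61 with no cell filter, 1.57 with at least 2000 genes and at most 5% mitochondrial UMIs, 1.54 without cells called by Scrublet and 1.53 as a mean of cells. It was 1.14 without the Amn/Cubn cluster and 1.59 with the Clu/Serpinb9b cluster, both chosen after seeing the data, and the Lamb1 ratio was then 0.972 in the former. The share without 4OHT was 1.49% at the higher resolution, with the members kept and with no filter, 1.498% with the stricter filter, 1.59% without Scrublet calls, 2.16% without Amn/Cubn, 1.52% with Clu/Serpinb9b and 1.67% as a mean of cells. With 4OHT it was 2.55, 2.46, 2.39 and 2.35% under the first 4 of these, 2.42% with Clu/Serpinb9b and 2.56% as a mean of cells. Thinned to 10000 UMIs, Nid1 was detected in 40.7% of endoderm-like cells without and 72.8% with 4OHT, and Hspg2 in 72.0 and 43.3%. Depth limits the rarest members: Lama5 had 336 UMIs in endoderm-like cells without 4OHT.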
